A study of Mus musculus with 13 samples.

Results

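The 34 genes described here encode the enzymes and transporters of glycolysis together with genes of the cellular response to low oxygen. They were taken by symbol from a fixed list, out of 32285 genes listed in every library, and were followed in fibroblasts of the mouse mammary gland. Aldoa stands on 2 rows of the tables, and its second row (ENSMUSG00000114515), with 13 UMIs over all libraries, was left out. A UMI is a tag that counts 1 captured mRNA molecule.

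The study sequenced 13 single-cell libraries of sorted mammary stromal cells in 9 groups, and 100523 of 120355 barcodes met the fibroblast limits used here. Stage libraries, 1 each, came from wildtype C57BL/6 females. The stages were puberty (4 weeks by the labels, slightly older in the study's text), adult (9 weeks) and day 14.5 of pregnancy. The last 2 were day 10 of lactation and day 4 of involution, the regression of the gland after weaning. The hormone experiment held 2 placebo and 2 MPA+E libraries from 9-week wildtype C57BL/6 females. Pellets were implanted at 8 weeks and glands were taken 7 days later. MPA+E stands for 15 mg of medroxyprogesterone acetate, a progestin, with 0.5 mg of estradiol. The labels write only that a drug was given, and the agents are those named in the study's methods. Each stage or hormone library pooled 2 females. Stage and hormone cells were sorted as negative for lineage markers and CD24.

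The tumor experiment held 2 hyperplasia and 2 tumor libraries from raGFP-Wnt1 females (Pdgfra-GFP KI/+ MMTV-Wnt1 T/+, mixed C57BL/6 FVB background), sorted for GFP. In this model the MMTV promoter drives Wnt1 in the mammary epithelium and GFP is read out from the Pdgfra locus. Every hyperplasia and tumor library carried both alleles. Hyperplasia 1 and tumor 1 came from a mouse of 45 weeks, and hyperplasia 2 and tumor 2 from a mouse of 17 weeks. For the comparison with hyperplasia, puberty and adult served as normal gland, as in the study. No gland of this background without the Wnt1 transgene was analysed here, so strain, sort and age changed together with the disease and cannot be told apart from it.

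Glycolysis splits glucose into pyruvate, and when oxygen is short the pyruvate is reduced to lactate and exported. Hypoxia-inducible factor 1, whose oxygen-regulated subunit is Hif1a, is hydroxylated by the Egln enzymes and then destroyed in oxygen, and otherwise raises transcription of glucose transporters, most glycolytic enzymes, the lactate exporter Slc16a3 and regulators of mitochondria such as Bnip3. In fibroblasts the collagen prolyl hydroxylases P4ha1 and P4ha2, which stabilize the collagen triple helix, belong to the same response, and glycolytic stroma is a known feature of tumors.

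All levels below are CPM, the UMIs of a gene per 1000000 UMIs summed over the fibroblasts of a library. Fibroblasts per library ranged from 4236 to 11951, and their summed UMIs from 47521842 to 102522735. Barcodes with a UMI of Epcam, Pecam1, Rgs5, Sox10, Ptprc or Myog had been removed. The fibroblast markers Dcn, Lum, Pdgfra and Col1a2 had UMIs in every library. Erythroid markers (Hba-a1, Hbb-bs, Alas2) summed to 119 CPM in tumor 1, 40.6 in tumor 2 and 33.2 at puberty, and to at most 7.35 elsewhere. Summed dissociation-response genes such as Fos and Hspa1a stood at 45690 and 39001 CPM in the hyperplasias, above the 16227 to 31964 of the other 11 libraries. Milk genes reached 872 CPM in lactation. Any pair of libraries shared at most 34 cell barcodes. A sum over cells cannot tell fewer cells of a type from less RNA per cell.

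Tumor fibroblasts carried more of this RNA than the hyperplastic glands of the same mice. Summed over the 34 genes the level was 3705 and 4981 CPM in the tumors and 2309.7 and 2383 CPM in the hyperplasias, and the other 9 libraries lay between 2244 and 2661 CPM. Of 33 members tested, 17 were higher and 1 was lower (limma-voom, Benjamini-Hochberg adjusted p under 0.05), where 15.4% of the 16302 genes tested were higher and 13.9% lower (29.3% in either direction). The median log2 fold change was 0.90 over the members and -0.01 over all genes tested. In CPM, both tumors stood above both hyperplasias for 22 members (35.4% of all genes) and below them for 2 (36.8%), and 9 members overlapped. Aldoc, the isozyme of the brain, was too low to be tested, with 0 UMIs in both hyperplasias, where 3 UMIs would be 0.0531 and 0.0414 CPM, and 11 and 21 UMIs in the tumors. These calls rested on having both hyperplasias. Those of Gpi1, Aldoa and Ldhb rested on further libraries too. Each of them was kept in only 1 of the 6 fits that left 1 library out. Without hyperplasia 1 no member was called (median 0.89, and 18 members at an unadjusted p under 0.05), and without hyperplasia 2 only Egln1 and Hif1a were (median 0.97), while the calls over all genes fell from 4777 to 242 and 314. The counts also moved without tumor 1 or tumor 2, and the share of all genes called in those fits is not given here. Other values moved with the groups, and their part in the result was not tested. The 10 dissociation-response genes summed to 23515 and 16227 CPM in the tumors, the 6 myofibroblastic markers to 2776 and 4306 CPM against 134 and 101 in the hyperplasias, and the 6 cycling markers to 102 and 205 against 6.92 and 2.25. The 8 progenitor markers summed to 4151 and 779 CPM in the tumors against 5189 and 6178, with tumor 2 far below the other 3. Pericyte markers summed to 3.06 and 8.28 CPM against 0.726 and 0.511, and Schwann cell markers to 9.21 and 1.81 against 15.01 and 21.5.

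**Figure D1:**
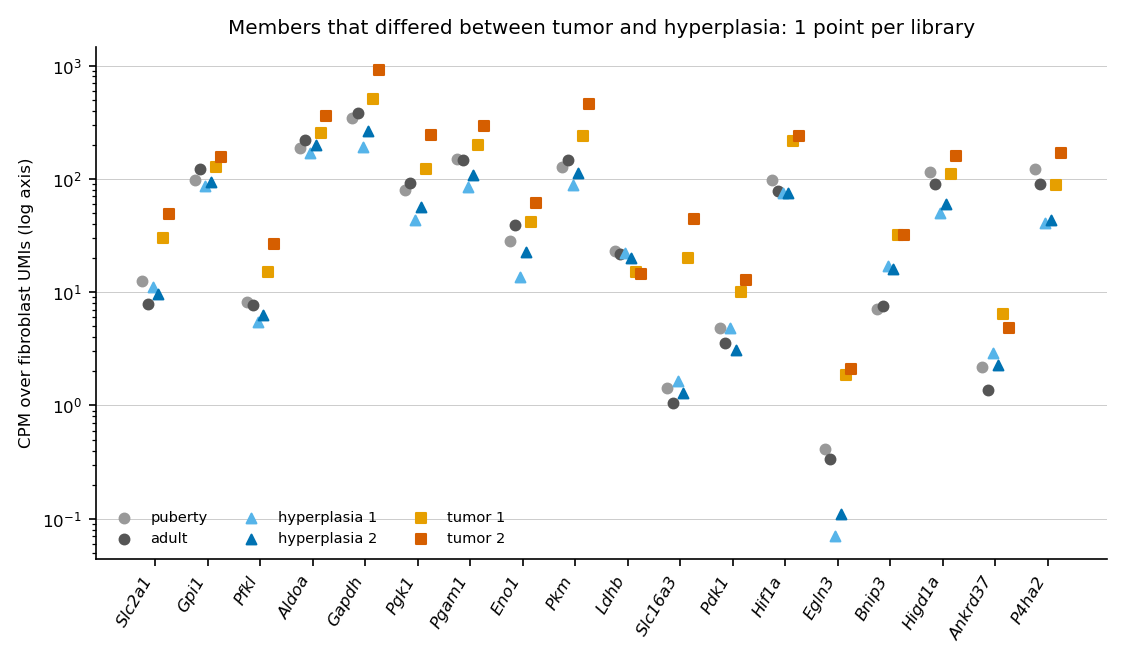
CPM over fibroblast UMIs (log axis) of the 18 members that differed between tumor and hyperplasia, with 1 point per library for puberty and adult (circles), hyperplasia (triangles) and tumor (squares). Both tumors lie above both hyperplasias for each member shown other than Ldhb, and Slc16a3 and Egln3 show the widest gaps.

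Hypoxia-inducible factors bind DNA at a short core that reads ACGTG or GCGTG. Promoter windows from RefSeq (GRCm38.p6), reaching from 250 bases before to 50 after the start site, were found for 31 of the 34 members, with none for Slc2a3, Bnip3l and Ndrg1. ACGTG, searched on both strands with overlaps counted, occurred in a window of 19 members (61.3%) and in 19.6% of 32851 windows of the same length from 27025 genes. GCGTG occurred in a window of 19 members (61.3%) and in 32.4% of all windows. The members were listed for glycolysis and the response to low oxygen, so these shares are a description and no test. They are per gene for the members and per window otherwise, and the windows were not matched for base content. ACGTG was found for 11 of the 17 members that were higher in tumors (64.7%) and for 8 of the other 14 (57.1%), and GCGTG for 10 (58.8%) and 9 (64.3%), so the matches were spread over called and uncalled members alike. The windows below are those of 6 members that rose and hold ACGTG, chosen from different steps of the pathway, and of Ldha, whose window holds the most matches (5) while its level did not pass the test. Capitals mark ACGTG, or CACGT where it lies on the other strand, and the bases run 5′ to 3′ along the gene. Slc16a3 lies at chr11:120948817-120949116 (+ strand), Egln3 at chr12:54203825-54204124 (- strand), Slc2a1 at chr4:119108495-119108794 (+), Pgk1 at chrX:106186850-106187149 (+), Bnip3 at chr7:138909457-138909756 (-), Ankrd37 at chr8:45999801-46000100 (-) and Ldha at chr7:46845554-46845853 (+).
Slc16a3: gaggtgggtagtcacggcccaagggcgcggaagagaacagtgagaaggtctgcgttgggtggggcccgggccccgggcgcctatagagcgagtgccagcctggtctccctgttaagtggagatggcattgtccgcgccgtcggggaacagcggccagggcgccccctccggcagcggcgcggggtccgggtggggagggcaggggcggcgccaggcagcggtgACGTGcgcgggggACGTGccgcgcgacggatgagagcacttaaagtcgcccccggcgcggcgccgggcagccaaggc
Egln3: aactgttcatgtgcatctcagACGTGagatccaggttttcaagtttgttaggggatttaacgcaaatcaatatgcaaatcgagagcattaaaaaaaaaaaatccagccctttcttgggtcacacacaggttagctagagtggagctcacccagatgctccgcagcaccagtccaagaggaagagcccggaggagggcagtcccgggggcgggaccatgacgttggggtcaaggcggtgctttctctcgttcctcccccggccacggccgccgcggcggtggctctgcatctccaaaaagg
Slc2a1: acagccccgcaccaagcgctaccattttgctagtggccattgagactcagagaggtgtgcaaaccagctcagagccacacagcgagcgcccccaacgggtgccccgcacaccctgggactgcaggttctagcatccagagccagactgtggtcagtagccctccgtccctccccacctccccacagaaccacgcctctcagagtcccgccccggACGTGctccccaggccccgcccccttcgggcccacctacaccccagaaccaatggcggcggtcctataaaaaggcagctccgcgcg
Pgk1: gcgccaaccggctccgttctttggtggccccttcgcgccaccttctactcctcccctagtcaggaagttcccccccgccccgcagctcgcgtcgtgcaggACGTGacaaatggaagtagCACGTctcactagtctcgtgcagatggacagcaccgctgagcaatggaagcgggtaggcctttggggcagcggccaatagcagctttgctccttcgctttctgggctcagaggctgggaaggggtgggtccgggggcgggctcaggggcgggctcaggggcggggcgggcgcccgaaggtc
Bnip3: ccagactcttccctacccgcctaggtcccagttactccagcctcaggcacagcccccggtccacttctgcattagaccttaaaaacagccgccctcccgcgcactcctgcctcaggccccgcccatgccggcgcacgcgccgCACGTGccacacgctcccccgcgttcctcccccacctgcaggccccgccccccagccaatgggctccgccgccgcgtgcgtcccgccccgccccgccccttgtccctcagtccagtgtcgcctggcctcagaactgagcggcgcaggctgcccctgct
Ankrd37: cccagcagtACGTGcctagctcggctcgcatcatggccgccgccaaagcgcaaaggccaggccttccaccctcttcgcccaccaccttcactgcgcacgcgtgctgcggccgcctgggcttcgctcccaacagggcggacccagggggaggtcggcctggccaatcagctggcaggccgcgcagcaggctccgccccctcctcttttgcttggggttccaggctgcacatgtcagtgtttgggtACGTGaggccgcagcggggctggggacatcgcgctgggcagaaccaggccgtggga
Ldha: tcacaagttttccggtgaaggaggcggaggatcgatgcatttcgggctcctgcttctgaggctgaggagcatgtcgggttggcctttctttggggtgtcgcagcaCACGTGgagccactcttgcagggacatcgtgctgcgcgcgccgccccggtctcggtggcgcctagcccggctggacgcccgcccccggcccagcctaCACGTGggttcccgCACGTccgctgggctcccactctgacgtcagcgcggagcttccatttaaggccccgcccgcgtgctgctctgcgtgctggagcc

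The windows of Slc16a3, Pgk1, Bnip3 and Ankrd37 hold 2 matches each, and those of Egln3 and Slc2a1 hold 1. The single stretch of Bnip3 (CACGTG) reads the same on both strands and was counted on each, as were 2 of the 3 stretches of Ldha. A match is a description of the letters and no evidence of binding.

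Of the glucose importers, Slc2a1 (GLUT1), the basal transporter of most cells, rose. It stood at 11.1 and 9.61 CPM in the hyperplasias, 30.2 and 48.8 in the tumors, and 12.6 and 7.81 in puberty and adult. Tumor 1 and tumor 2 were the highest of all 13 libraries, and the log2 fold change was 1.90 ± 0.31 (SE, n = 2 against 2, limma-voom adjusted p = 0.0118). Slc2a3 (GLUT3), the high-affinity transporter, had 7.01 and 4.64 CPM in the hyperplasias and 3.94 and 11.2 in the tumors. Its groups overlapped and the change of 0.23 ± 0.51 did not pass the test (adjusted p = 0.751).

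In upper glycolysis, which spends ATP to cut glucose into triose phosphates, 3 of 8 tested members rose. Pfkl, the liver isoform of phosphofructokinase, had 5.45 and 6.32 CPM in the hyperplasias and 15.1 and 26.4 in the tumors, with puberty and adult at 8.25 and 7.69. The tumors were the 2 highest libraries of the series, and the log2 fold change was 1.76 ± 0.29 (limma-voom adjusted p = 0.0120). Gpi1, which turns glucose 6-phosphate into fructose 6-phosphate, read 86.6 and 92.9 CPM in the hyperplasias against 126 and 157 in the tumors (0.65 ± 0.17 on the log2 scale, adjusted p = 0.0329). Aldoa, the main aldolase of fibroblasts, read 168 and 197 CPM against 254 and 358 (0.74 ± 0.20, adjusted p = 0.0361). Both genes separated the tumors from the hyperplasias by a smaller margin than Pfkl did, and adult reached 123 CPM for Gpi1 and 220 for Aldoa. The other 2 phosphofructokinases did not follow Pfkl. Pfkm had 7.26 and 7.47 CPM in the hyperplasias and 6.56 and 7.99 in the tumors, and Pfkp had 62.5 and 64.2 against 51.0 and 35.8. Pfkp was thus lower in both tumors, at -0.57 ± 0.24, without passing the test (adjusted p = 0.113). Hexokinases Hk1 and Hk2, which trap glucose in the cell, overlapped between the groups. Hk1 read 26.5 and 30.4 CPM against 25.1 and 26.7, and Hk2 read 302 and 142 against 353 and 218. Tpi1, the triose phosphate isomerase, read 82.1 and 94.1 CPM against 117 and 227. Its change of 0.90 ± 0.28 stayed short of the threshold (adjusted p = 0.0557) and passed with the mouse as a replicate block (adjusted p = 0.0229).

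Of lower glycolysis, the steps that earn ATP, nearly every gene moved, with 5 of 6 members higher and a median log2 fold change of 1.56. Gapdh had 191 and 264 CPM in the hyperplasias and 503 and 908 in the tumors, and the log2 fold change was 1.59 ± 0.29 (limma-voom adjusted p = 0.0150). Pgk1, the first ATP-yielding enzyme, had 43.4 and 56.5 CPM against 122 and 242 (1.80 ± 0.30, adjusted p = 0.0128). For both genes every tumor library was above every other library of the series. Pgam1 went from 84.0 and 108 CPM to 200 and 290 (1.34 ± 0.21, adjusted p = 0.0112). Eno1, the ubiquitous enolase, went from 13.5 and 22.6 CPM to 41.9 and 61.3 (1.53 ± 0.30, adjusted p = 0.0177). Pkm, the last enzyme of the pathway, went from 88.4 and 113 CPM to 241 and 457 (1.74 ± 0.29, adjusted p = 0.0124). In each of these genes tumor 2 exceeded tumor 1, and the lower tumor exceeded the higher hyperplasia. Eno2, the neuronal enolase, was the exception, with 14.1 and 12.9 CPM in the hyperplasias and 13.2 and 11.2 in the tumors. Gapdh, Eno1, Pgk1, Aldoa, Ldha, Pgam1 and Tpi1 have near-identical copies elsewhere in the genome, so reads shared with a copy could have been left out or split and their levels are uncertain to that extent.

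The widest change among the pyruvate and lactate genes was that of Slc16a3 (MCT4), which exports lactate. It had 1.63 and 1.28 CPM in the hyperplasias and 20.02 and 44.4 in the tumors, and no other library exceeded 2.08. The groups were far apart, with a log2 fold change of 4.38 ± 0.52 (20.8-fold, limma-voom adjusted p = 0.00623). Slc16a1 (MCT1), which can carry lactate into cells, read 30.5 and 30.5 CPM against 33.8 and 22.1 and did not pass. Pdk1, the kinase that holds pyruvate back from the mitochondrion, had 4.83 and 3.11 CPM in the hyperplasias and 10.1 and 12.8 in the tumors (1.58 ± 0.27, adjusted p = 0.0138). Ldha, which makes lactate, had 247 and 275 CPM against 285 and 470, so that tumor 1 was close to the hyperplasias, and its change of 0.49 ± 0.24 did not pass (adjusted p = 0.154). Ldhb, whose subunit favors the reverse reaction, was the single member that fell. It had 22.1 and 20.1 CPM in the hyperplasias and 15.2 and 14.4 in the tumors (-0.51 ± 0.15, adjusted p = 0.0448), and it was not called without the filter on low counts.

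All 3 oxygen-sensing genes stood higher in both tumors. Hif1a had 75.4 and 75.0 CPM in the hyperplasias and 217 and 239 in the tumors, where the other 9 libraries held 78.0 to 123. The gap exceeded the spread within either group, at 1.60 ± 0.18 on the log2 scale (limma-voom adjusted p = 0.00506). Egln3 (PHD3), an oxygen-dependent prolyl hydroxylase of Hif1a and itself a classic hypoxia-induced gene, had only 4 and 8 UMIs in the hyperplasias (0.0708 and 0.110 CPM) and 190 and 185 UMIs in the tumors (1.85 and 2.11 CPM). This is a fitted difference of 4.34 ± 0.43 (20.3-fold, adjusted p = 0.00419), at a low level. Egln1 (PHD2), the main hydroxylase, had 33.7 and 61.4 CPM against 81.6 and 84.2. Hyperplasia 2 lay nearer to the tumors than to hyperplasia 1, and the change of 0.87 ± 0.27 did not pass (adjusted p = 0.0551). It did pass with the mouse as a replicate block (adjusted p = 0.0321).

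Among the genes that act on mitochondria in hypoxia, Bnip3, a receptor for mitophagy, had 17.0 and 15.9 CPM in the hyperplasias and 32.1 and 32.2 in the tumors (0.97 ± 0.13, limma-voom adjusted p = 0.00807). Higd1a, a small inner-membrane protein, had 49.98 and 59.9 CPM against 110 and 158 (1.27 ± 0.23, adjusted p = 0.0146). Bnip3l, the paralog of Bnip3, stayed between 122 and 155 CPM in all 13 libraries. Of the other hypoxia-induced genes, Ankrd37, a direct Hif1 target, had 2.89 and 2.28 CPM in the hyperplasias and 6.40 and 4.85 in the tumors (1.14 ± 0.30, adjusted p = 0.0333). Ddit4, an inhibitor of mTORC1, had 13.5 and 27.5 CPM against 30.1 and 73.5, with a wide spread in both groups (1.28 ± 0.47, adjusted p = 0.0836, and 0.00818 with the mouse as a replicate block). Ndrg1 and Adm (adrenomedullin, a vasodilator peptide) overlapped. Adm read 216 and 194 CPM in the hyperplasias and 300.0 and 134 in the tumors. Of the collagen hydroxylase subunits, P4ha2 had 40.7 and 43.1 CPM against 87.9 and 168 (1.54 ± 0.31, adjusted p = 0.0182). P4ha1 had 108 and 108 CPM against 114 and 186 and did not pass (0.43 ± 0.23, adjusted p = 0.181).

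**Figure D2:**
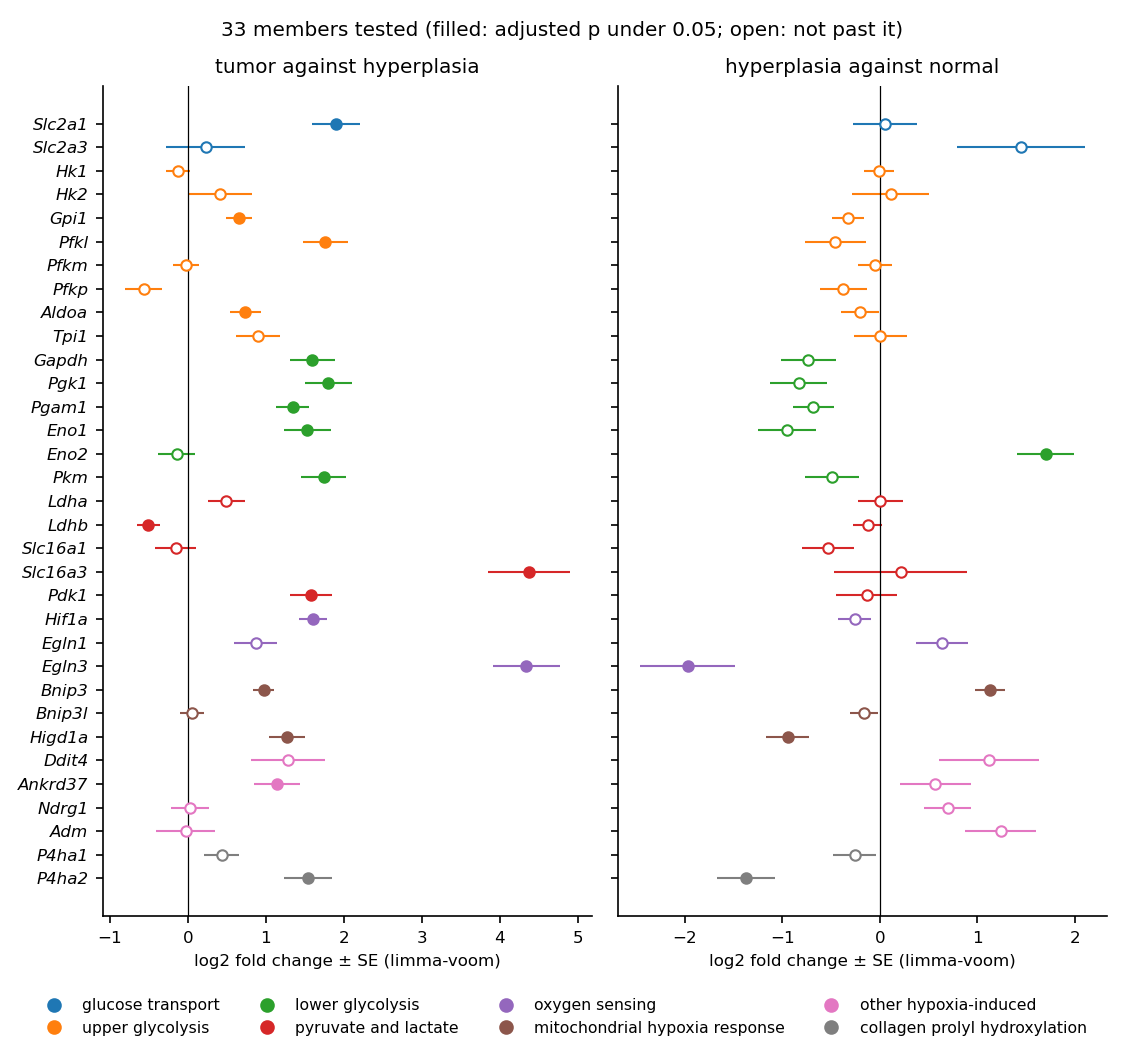
log2 fold change with its SE (limma-voom, 2 libraries against 2) of the 33 tested members, colored by role, for tumor against hyperplasia (left) and hyperplasia against normal gland (right), with filled points past adjusted p 0.05. On the left 17 filled points lie above 0 and 1 below, and on the right 2 lie above and 3 below.

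In hyperplastic glands, Eno2 and Bnip3 were higher and P4ha2, Higd1a and Egln3 lower than in normal gland. These 2 and 3 calls of 33 tested were shares near those of all genes, of which 7.7% of 16302 were higher and 6.29% lower, and so are no result about the members. The median was -0.14 against -0.01 for all genes. In CPM, 8 members lay above in both hyperplasias (37.1% of all genes), 15 below (33.6%) and 10 overlapped. Eno2 rose from 2.77 and 5.36 CPM in puberty and adult to 14.1 and 12.9 (1.70 ± 0.29, limma-voom adjusted p = 0.0240). Bnip3 rose from 7.12 and 7.49 CPM to 17.0 and 15.9 (1.13 ± 0.15, adjusted p = 0.0129). Among the genes that fell, P4ha2 went from 123 and 90.1 CPM to 40.7 and 43.1 (-1.37 ± 0.30, adjusted p = 0.0370) and Higd1a from 115 and 90.8 CPM to 49.98 and 59.9 (-0.94 ± 0.22, adjusted p = 0.0421). Egln3 went from 0.410 and 0.339 CPM to 0.0708 and 0.110 (-1.97 ± 0.49, adjusted p = 0.0465), and it was not called after Scrublet doublets were removed or without the low-count filter. Leaving out any of puberty, adult, hyperplasia 1 or hyperplasia 2 left no member called, with 9, 6, 7 and 11 members at an unadjusted p under 0.05 without adult, puberty, hyperplasia 1 and hyperplasia 2. Leaving out tumor 1 or tumor 2, which share the estimate of the spread, gave more calls in both directions. The share of all genes called in those fits is not given here, so this is no result about the members.

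Of lower glycolysis, Eno2 was the only one of 6 members called between hyperplasia and normal gland, and it was higher. The median log2 difference of the 6 was -0.71, and 5 had an unadjusted p under 0.05, as did 35.0% of all genes. The dissociation-response genes summed to 45690 and 39001 CPM in the hyperplasias and 19069 and 24077 in puberty and adult, and their part in these values was not tested. Gapdh read 347 and 385 CPM in normal gland and 191 and 264 in hyperplasia (-0.74 ± 0.28, limma-voom adjusted p = 0.119), and Pgk1 80.4 and 92.1 against 43.4 and 56.5 (-0.83 ± 0.29, adjusted p = 0.0994). Since both comparisons use the same 2 hyperplasia libraries, a low value there lowers one difference and raises the other. In CPM and without a test, both tumors read above puberty and adult for Gapdh, Pgk1, Pgam1, Eno1 and Pkm. For P4ha2 tumor 1 (87.9 CPM) lay below adult (90.1). For Higd1a tumor 1 (110 CPM) lay below puberty (115).

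MPA+E changed no member past the adjusted threshold. Of 33 tested, none was called (edgeR quasi-likelihood), where 2.69% of 15642 genes were higher and 1.64% lower (4.33% in either direction). At an unadjusted p under 0.05 there were 3 members and 18.5% of all genes, DESeq2 called 1 member and limma-voom none. The median was -0.02, and 0.01 over all genes, and in CPM 7 members lay above in both MPA+E libraries (21.2% of all genes), 7 below (22.4%) and 19 overlapped. Pkm read 103 and 92.0 CPM with placebo and 133 and 119 with MPA+E (0.38 ± 0.09, edgeR adjusted p = 0.102). Pgk1 read 62.5 and 58.2 CPM against 76.1 and 71.7 (0.30 ± 0.08, adjusted p = 0.144). Adm read 166 and 268 CPM against 114 and 138 (-0.78 ± 0.30, adjusted p = 0.260). These 3 separated the groups in CPM, with Adm lower and Pkm and Pgk1 higher under MPA+E. Hk2 was also lower in both MPA+E libraries, with group means of 184 against 320 CPM (-0.78 ± 0.31, edgeR adjusted p = 0.272). With a replicate block, Adm, Hif1a, Hk2, Pgk1, Pkm and Slc16a1 were called, though placebo and MPA+E libraries share only a number. The share of all genes called under that block is not given here.

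Across the stages, with 1 library each and so no replicate check or test, levels were given with exact Poisson intervals that cover counting error only. Of 32 members with a mean of at least 1 CPM, 13 had a highest stage at least 2 times the lowest, where 23.8% of 12350 genes did, and the median ratio was 1.89 against 1.59 over all genes. Highest values fell in puberty for 9 members (14.6% of all genes), in adult for 8 (19.4%), in pregnancy for 4 (14.8%), in lactation for 7 (35.6%) and in involution for 4 (15.7%). The lowest fell in puberty for 8 (31.3%), in adult for 5 (10.9%), in pregnancy for 2 (13.2%), in lactation for 6 (16.1%) and in involution for 11 (28.6%). Several glycolytic genes were highest at the first stages. Gapdh had 347, 385, 289, 188 and 181 CPM from puberty through involution, and Eno1 had 28.0, 39.4, 30.2, 22.6 and 19.2. Lactation and involution were low for both genes. Slc2a1 had 12.6, 7.81, 5.41, 5.11 and 6.82 CPM (ratio 2.47, interval 2.15 to 2.83), with puberty the highest. Schwann cell markers were also highest at puberty, at 50.5 CPM against 15.9 to 21.1 at the other stages, and cluster 8 of the stage integration, which carried them, read Slc2a1 at 278 CPM in puberty. With that cluster left out, an alternative added after the data were seen, Slc2a1 read 11.6, 7.80, 5.37, 5.10 and 6.82 CPM (ratio 2.28). Pfkl had 8.25, 7.69, 7.34, 3.60 and 3.92 CPM (ratio 2.29) and stepped down after pregnancy. P4ha2 had 123, 90.1, 114, 91.0 and 54.3 CPM (ratio 2.27), lowest at involution.

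Adm went the other way. Puberty, adult and pregnancy read 73.3, 98.3 and 94.2 CPM, lactation 368 and involution 335, for a ratio of 5.01 (interval 4.84 to 5.20) and the widest of the 32 members. The step between pregnancy and lactation was seen in each of the 5 named non-cycling classes. In the progenitor-like class Adm read 67.2 CPM in pregnancy and 184 in lactation, and in the lobular-like class 130 and 477. Eno2 had 2.77, 5.36, 5.77, 7.74 and 12.3 CPM (ratio 4.43, interval 3.69 to 5.35). Slc2a3 had 1.42, 2.63, 2.19, 5.16 and 4.67 CPM (ratio 3.64, interval 2.80 to 4.79). Both were lowest at puberty and highest in lactation or involution. The ECM remodeling-like class, in which Slc2a3 was above the level of all fibroblasts at each stage and Eno2 at each stage with a small margin at puberty (2.93 against 2.77 CPM), took 1.99%, 12.0%, 11.1%, 22.4% and 27.7% of fibroblasts at the 5 stages, and the part of that shift in the result was not tested. Within that class alone Eno2 read 2.93, 10.4, 9.72, 9.67 and 19.7 CPM, and in the adipogenesis-regulatory-like class 5.23, 7.98, 10.6, 14.8 and 14.1, higher than the former at puberty, pregnancy and lactation. Slc2a3 within it read 4.89, 8.79, 3.30, 8.35 and 6.79 CPM, highest in adult and lowest in pregnancy, so its order over all fibroblasts was not that within the class. Bnip3 (7.12, 7.49, 8.46, 14.3 and 13.0 CPM) and Egln1 (27.5, 29.6, 30.7, 60.3 and 46.9 CPM) also stood higher in lactation and involution than at the first 3 stages. Ankrd37 had 2.18, 1.37, 0.652, 1.03 and 0.862 CPM (ratio 3.33, interval 2.22 to 5.15) and was highest at puberty. Egln3, with a mean of only 0.465 CPM, was highest in pregnancy (0.968 CPM, 46 UMIs) and at 0.270 CPM in lactation. In pregnancy it read 21.5 CPM in cluster 9 of the stage integration, which was led by Acta2, Krt14 and Cnn1, markers of myoepithelial and smooth muscle cells. That cluster held 144 cells in pregnancy (1.25% of its fibroblasts) and at most 21 at any other stage. Epithelial markers summed to 30.7 CPM in pregnancy and to at most 1.30 in the other 12 libraries, and 19 of the 46 UMIs lay in that cluster. With it left out, an alternative added after the data were seen, pregnancy read 0.579 CPM and was still the highest (ratio 2.15 in place of 3.59). Pregnancy was also the library with the lowest median depth, 3990 UMIs per fibroblast.

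**Figure D3:**
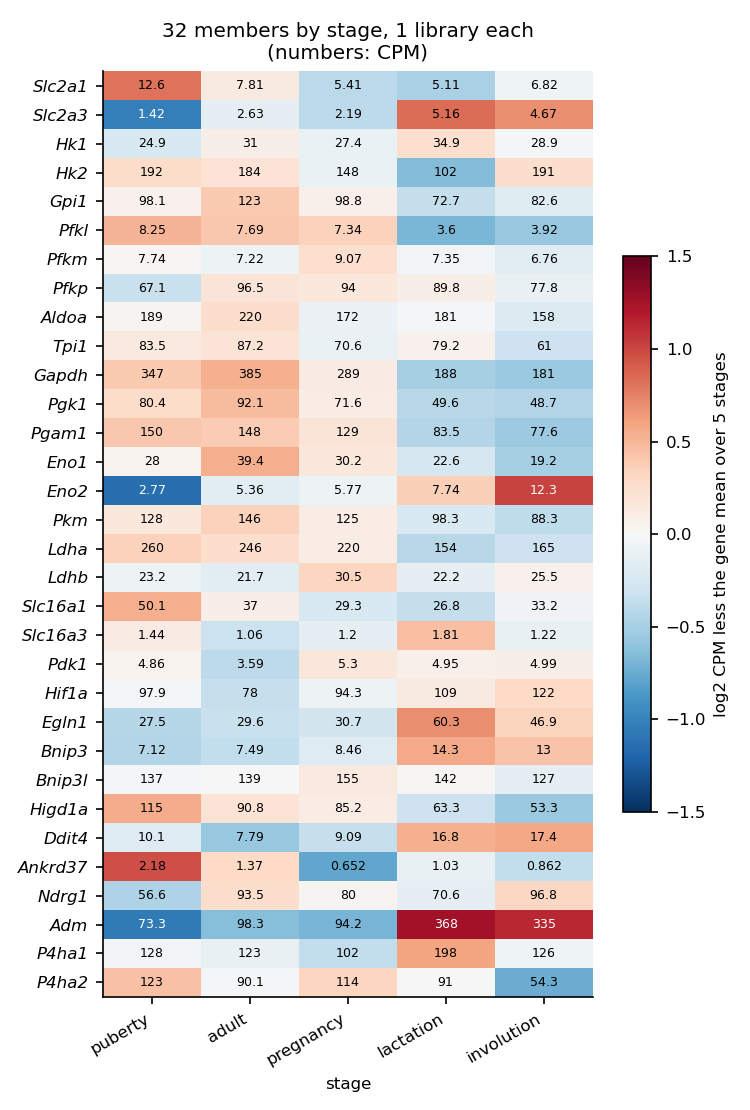
CPM of 32 members (numbers) in the 5 stage libraries, 1 library per column, colored by log2 CPM less the mean of the gene over the stages. Adm, Eno2 and Slc2a3 are low at puberty and high in lactation or involution, and Gapdh, Pgk1, Pgam1 and Pfkl are highest at the first stages.

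Fibroblast states were set against each other within each library. Of 32 members with at least 1 CPM, 11 were above and 12 below the other named classes in the progenitor-like class of every stage library (28.9% and 25.2% of all genes). In every hormone library it was 11 and 8 of 32 (29.8% and 34.6%), and in every raGFP-Wnt1 library 13 and 3 of 33 (20.6% and 26.9%). In the ECM remodeling-like class the counts were 5 and 5 at the stages (18.6% and 20.2%), 7 and 15 in the hormone libraries (35.3% and 32.8%) and 3 and 12 in the raGFP-Wnt1 libraries (18.7% and 31.6%). Genes of either kind are common among all genes, and none of these counts was tested. In the raGFP-Wnt1 progenitor-like class more members were above, and fewer below, than the shares of all genes. The values below describe single members. Cells were clustered without the members among the features, and clusters were named from markers listed with the study's text, so that a progenitor-like cluster carries Pi16 and Dpp4 and an ECM remodeling-like cluster carries Pla2g7, Mme and Enpp2. A class against the rest is a description without a test. On the scale of log2((CPM + 1)/(CPM of the other named classes + 1)), the progenitor-like class was higher for Slc16a1 in 5 of 5 stage libraries (mean 1.20), in 4 of 4 hormone libraries (1.19) and in 4 of 4 raGFP-Wnt1 libraries (2.02). Hif1a was likewise higher there in every library (means 0.50, 0.54 and 0.93). The same class was lower in every library for Ldhb (-1.54, -1.91 and -1.52) and Slc2a3 (-1.05, -1.35 and -1.25), and in every stage and hormone library for Ldha (-1.15 and -1.08) and Eno2 (-1.19 and -1.24). In the ECM remodeling-like class Ldhb (1.42, 1.42 and 1.03) and Ldha (0.55, 0.63 and 0.63) were higher in every library, and Slc16a1 was lower in every library (-1.30, -1.39 and -2.10). In adult gland, for example, Slc16a1 read 56.6 CPM in the progenitor-like and 14.3 in the ECM remodeling-like class, and Ldhb 9.55 and 64.7. The lobular-like class was about as low in Ldhb as the progenitor-like class, with 10.9 CPM in adult gland and, in placebo 2, 5.80 against 9.56. Unnamed cluster 4 of the stage integration, closest by its markers to the progenitor state, was not among the named classes and read much alike. In adult gland it held Slc16a1 at 51.2 CPM and Ldhb at 9.21. Hif1a read 93.7 there and 100 in the progenitor-like class, and Slc2a3 0.849 and 0.745. These traits were thus shared with that cluster. High Ldha was shared with the preadipocyte-like class. From puberty through involution Ldha read 425, 362, 313, 194 and 201 CPM there, and 351, 359, 467, 198 and 200 in the ECM remodeling-like class. Ldhb read 41.4 CPM in preadipocyte-like cells of adult gland, between the 2 classes above. The median over all members in the progenitor-like and ECM remodeling-like class was 0.04 and -0.01 at the stages, 0.02 and -0.13 in the hormone libraries, and 0.14 and -0.27 in the raGFP-Wnt1 libraries.

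In the tumors, many members were higher in cluster 4 of the raGFP-Wnt1 integration than in the other non-cycling fibroblasts, and the cycling cells were as high in several of them. Cluster 4 was led by Cxcl5, Gm6093, Tnc, Cxcl2 and Ptn and held 69 and 99 cells of the hyperplasias and 1165 and 1438 cells of the tumors, or 13.1% and 33.9% of the tumor fibroblasts. At this resolution of clustering it met no state's name, and at the finer one (0.6) the cluster led by Cxcl5 met the myofibroblastic name. Its erythroid markers summed to 319 CPM in tumor 1 and 81.0 in tumor 2, above the 119 and 40.6 of all fibroblasts of these tumors, and the part of this in the member levels was not tested. Of 33 members with at least 1 CPM, 21 were at least 1.5 times the level of the other fibroblasts in both tumors, where 1.83% of 12272 genes were, and 0 were at 1/1.5 or less in both, where 6.63% of genes were. In both tumors it was the highest non-cycling class for 18 members (4.84% of genes). The median ratio of the members was 1.74 and 1.72, and 0.941 and 0.932 over all genes.

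The highest ratios within the tumors were those of Egln3, Slc16a3 and Bnip3, while other genes of the hypoxia response, Adm (1.12 and 0.691) and Bnip3l (0.999 and 1.08), stood near 1 or below. Egln3 read 6.31 CPM in cluster 4 and 0.980 in the other cells of tumor 1, and 3.83 and 0.995 in tumor 2. Slc16a3 read 48.0 and 14.5 CPM in tumor 1 and 77.1 and 23.2 in tumor 2, so ratios were 3.30 and 3.33. Bnip3 read 69.1 and 24.9 CPM and 52.8 and 18.8 (ratios 2.78 and 2.80). Pgk1 was at 2.40 in both tumors, Eno1 at 2.37 and 2.33, and Hif1a itself at 1.42 and 1.61. Ldhb ran the other way, at 0.749 and 0.420. In the hyperplasia cells of cluster 4, Slc16a3 read 0.0 and 1.08 CPM, Bnip3 10.9 and 9.71 and Pgk1 42.1 and 71.2. These levels lay below those of its tumor cells, so they were no trait of the cluster in both tissues. Ndrg1 read 216 and 218 CPM in its hyperplasia cells, and 196 and 202 in its tumor cells. The tumor difference was also measured outside this cluster. With cluster 4 left out of all libraries, an alternative added after the data were seen, 13 members were still higher and none lower (limma-voom, median 0.55). With the cycling cells left out as well, 12 were higher (median 0.45) and all 12 were among the 17. The share of all genes called in these fits is not given here. The counts alone thus do not set the members apart from other genes. With both left out, Bnip3 changed by only 0.16 (adjusted p = 0.693) and Ankrd37 by 0.45 (adjusted p = 0.472). Eno1 (0.87 in place of 1.53, adjusted p = 0.0521), Gpi1 (0.41 in place of 0.65, 0.0796) and Aldoa (0.47 in place of 0.74, 0.0656) also lost their calls. Slc16a3 (3.16 in place of 4.38), Egln3 (3.02 in place of 4.34) and Hif1a (1.32 in place of 1.60) were still called at smaller differences. Cycling cells, 204 and 237 in the tumors against 3 and 0 in the hyperplasias, were also high in members, with Pgk1 at 1.64 and Slc16a3 at 2.34 on the log2 ratio scale above. Slc16a3 read 56.6 and 83.0 CPM in the cycling cells of tumor 1 and tumor 2, and Pgk1 275 and 376 against 238 and 374 in cluster 4. Eno1 read 74.5 and 95.3 in cycling cells and 81.1 and 93.8 in cluster 4. Bnip3 read 37.6 and 51.6 in cycling cells, below cluster 4 in tumor 1 and close to it in tumor 2. Adm was higher in progenitor-like cells (440 and 1034 CPM) than in cluster 4 (329 and 106).

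**Figure D4:**
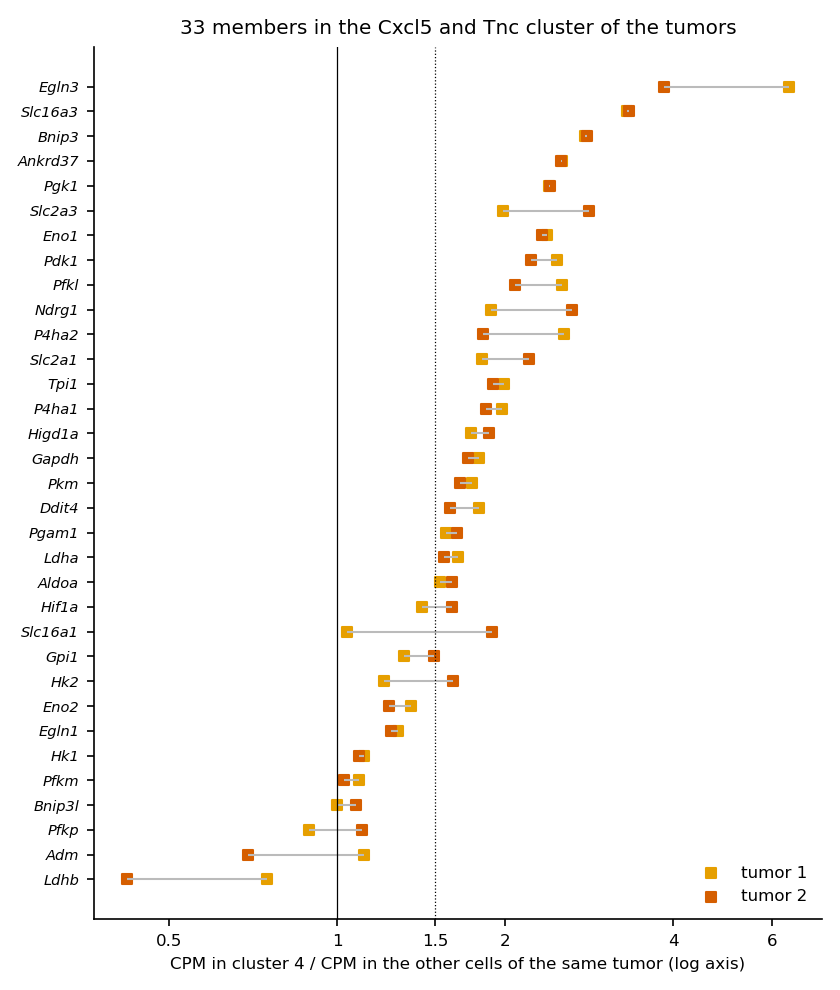
Ratio of CPM in cluster 4 to CPM in the other fibroblasts of the same tumor (log axis) for 33 members, 1 point per tumor joined by a line, with guides at 1 and 1.5. Egln3, Slc16a3 and Bnip3 have the highest ratios and Ldhb the lowest, and 21 members lie past 1.5 in both tumors.

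Within the named states, Hif1a was higher in the tumors in 6 of 6 classes and Slc16a3 in 5, and Pgk1 and Slc2a1 in 3 each. With the finer clustering, an alternative added after the data were seen, Hif1a was called in 5 classes and Slc16a3 in 2, and the progenitor-like and adipogenesis-regulatory-like classes had 1 call each and the ECM remodeling-like class none. A class need not hold the same cells in both groups, and the names were rebuilt here from markers, so that a class may differ from the study's class of that name. Of the adipogenesis-regulatory-like cells, 5.49% and 14.5% in the hyperplasias and 52.6% and 77.1% in the tumors fell in an unnamed cluster of the finer clustering, led by Ankmy1, Reg1 and Defb48, whose cells had a median UMI count of 0.1 times that of all fibroblasts in their own library. The 422 and 545 hyperplasia cells of the myofibroblastic-like class, led by F5, Igfbp2 and Cdkn2a, summed to 89.7 and 77.3 CPM of the 6 markers against 5565 and 6137 in the tumors, and 92.4% and 93.9% of them fell in an unnamed cluster with the finer clustering. The hyperplasia cells of that class thus lacked most of the marker RNA, and values of single members are not given for it. The lobular-like class, led by Thbs4, C1qtnf3 and Ecrg4, took 3.41% and 1.33% of hyperplasia fibroblasts and 6.98% and 10.3% of tumor fibroblasts. Only 1 of its 7 markers was among the genes leading its larger cluster, where Comp and Scube2 also stood. The 7 markers summed to 8179 and 5531 CPM in the hyperplasias and 2780.3 and 2036 in the tumors. The class thus need not hold the same cells in both groups. The part of this in its member values was not tested. In the ECM remodeling-like class Hif1a read 43.9 and 43.2 CPM in the hyperplasias and 88.6 and 92.9 in the tumors (0.90 ± 0.16, limma-voom adjusted p = 0.0460, and 0.101 with the finer clustering). In the adipogenesis-regulatory-like class it read 40.5 and 48.2 CPM against 177 and 244 (2.15 ± 0.23, adjusted p = 0.00254). Without the unnamed cluster, in the finer clustering, the difference was 2.08 (adjusted p = 0.00569). Tumor and hyperplasia did not overlap for Hif1a in any class. Slc16a3 read 0.787 and 0.962 CPM in progenitor-like cells of the hyperplasias and 11.8 and 34.8 in those of the tumors (4.22 ± 0.76, adjusted p = 0.0453, and 0.0694 with the finer clustering). In ECM remodeling-like cells it read 2.88 and 2.27 against 7.37 and 5.28 and was not called (adjusted p = 0.0959).

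The number of members called higher and lower was 1 and 0 of 32 in the ECM remodeling-like class (2.46% and 0.604% of all genes), 4 and 0 of 31 in the adipogenesis-regulatory-like class (2.9% and 1.06%, and 1 call with the finer clustering), 3 and 0 of 32 in the preadipocyte-like class (1.11% and 0.796%) and 3 and 0 of 32 in the progenitor-like class (1.94% and 1.15%). It was 10 and 3 of 32 in the lobular-like class, which joins clusters 6 and 10 (10.6% and 13.9%), and 10 and 3 of 32 in the myofibroblastic-like class (17.7% and 19.7%), so both of these classes also had the most calls among all genes. Median log2 differences ran from 0.03 in the ECM remodeling-like to 1.02 in the progenitor-like class, with all genes between -0.02 and 0.02. Adm in the lobular-like class read 382 and 440 CPM in the hyperplasias and 85.9 and 19.4 in the tumors (-3.40 ± 0.56, limma-voom adjusted p = 0.00434), beside the differences in markers and share given above. In progenitor-like cells it read 192 and 87.0 against 440 and 1034 without passing (2.47 ± 0.51, adjusted p = 0.0603), and the differences between classes were not tested against each other. Leaving out hyperplasia 1 or hyperplasia 2 left 0 calls in the ECM remodeling-like, preadipocyte-like and progenitor-like classes and 1 in the adipogenesis-regulatory-like class, and leaving out tumor 1 raised these counts to 10, 14, 19 and 11 in the same order, of which 5, 0, 1 and 0 were lower in the tumor. Without tumor 2 they were 5, 7, 8 and 4. The 13 calls of the lobular-like class fell to 1 without hyperplasia 1 and to 5 without hyperplasia 2, and those of the myofibroblastic-like class were 20 without tumor 1. Blocking on the mouse (replicate block) gave 6 higher and 2 lower in the ECM remodeling-like, 10 and 0 in the adipogenesis-regulatory-like, 17 and 0 in the preadipocyte-like and 12 and 0 in the progenitor-like class. The medians were then 0.03, 0.45, 0.70 and 0.99, against 0.03, 0.45, 0.65 and 1.02 in the main fits. The shares of all genes called under the block, or with 1 library left out, are not given here.

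Within the progenitor-like class MPA+E gave 2 members higher and 2 lower of 32 tested (edgeR quasi-likelihood), shares close to the 6.55% and 6.32% of all genes, and so no result about the members. In the other 4 classes none was called, with 2 to 4 members at an unadjusted p under 0.05. The shares of all genes called higher and lower in those classes were 0.574% and 0.511% (ECM remodeling-like), 2.47% and 1.15% (adipogenesis-regulatory-like), 2.14% and 1.16% (lobular-like) and 2.96% and 1.25% (preadipocyte-like). Pkm read 97.2 and 93.3 CPM with placebo and 141 and 137 with MPA+E (0.59 ± 0.10, adjusted p = 0.0141). Pgk1 read 56.1 and 57.0 CPM against 79.8 and 79.6 (0.54 ± 0.10, adjusted p = 0.0207). Replicates of a group were close to each other and the groups well apart for both. Adm read 181 and 245 CPM with placebo and 108 and 101 with MPA+E (-0.99 ± 0.18, adjusted p = 0.0207), and Ldhb 7.79 and 9.56 against 4.00 and 5.05 (-0.89 ± 0.21, adjusted p = 0.0464). The difference between the progenitor-like class and the mean of the other 4 was tested as a contrast with the library as a term (edgeR quasi-likelihood). Classes of 1 library counted there as separate observations. By that contrast 8 of 32 members differed, 4 in each direction, where 5.02% and 6.34% of 13897 genes did. Aldoa, Pgk1, Pkm and P4ha1 had the higher and Ldhb, Slc16a1, Slc16a3 and Hif1a the lower effect in the progenitor-like class. For Pkm the ECM remodeling-like class gave -0.07 ± 0.13 and the preadipocyte-like class 0.48 ± 0.14. For Ldhb the other classes lay between -0.24 and 0.20. The cells of this class differed between the groups. Of its cells, 20.1% and 20.1% with placebo and 57.3% and 55.05% with MPA+E fell in an unnamed cluster of the finer clustering, led by Tgm2, Ctla2a and Cxcl13, and its 8 markers summed to 13398 and 11636 CPM with placebo and 5698 and 6350 with MPA+E. With the class taken from the finer clustering, which leaves that cluster out, none of the 4 members was called. The log2 difference was then 0.44 for Pkm (adjusted p = 0.133), 0.35 for Pgk1 (0.243), -0.76 for Adm (0.190) and -1.13 for Ldhb (0.0712), so it was smaller for the first 3 and larger for Ldhb. In the same clustering the difference between classes was called for Ldhb and Slc16a3 and for none of the other 6. Without placebo 2 none of the 4 calls within the class was left, without placebo 1 there was 1, and without MPA+E 2 there were 7. Without MPA+E 2 the ECM remodeling-like class had 5 calls, all lower, and the lobular-like class had 2.

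**Figure D5:**
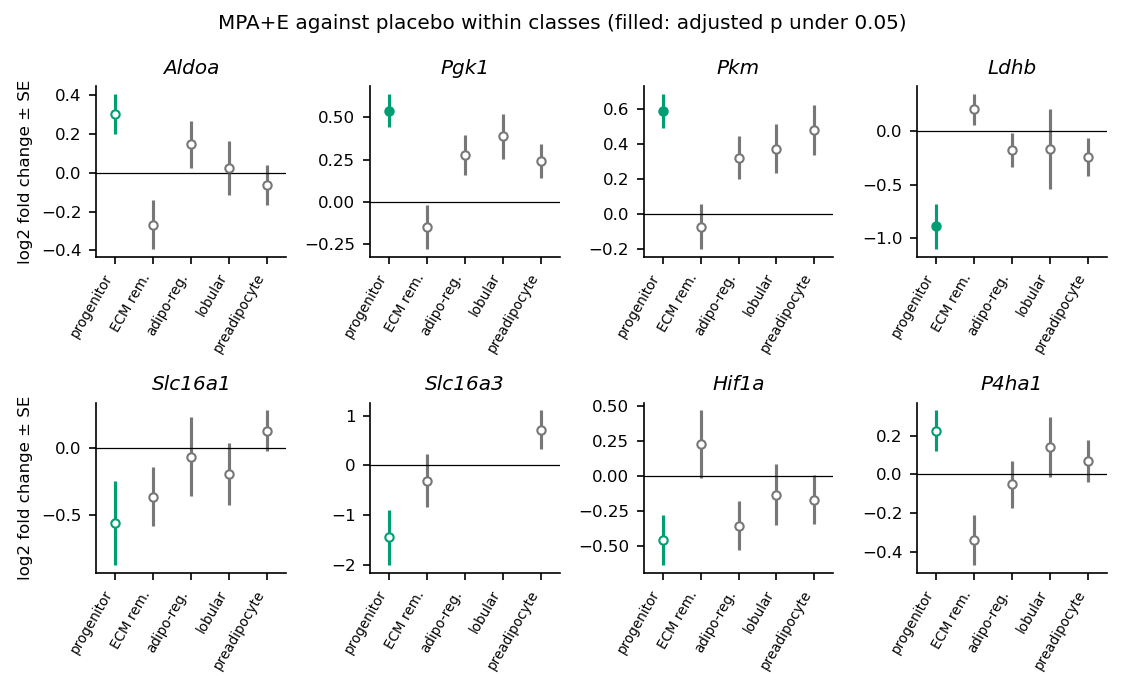
log2 fold change with its SE (edgeR quasi-likelihood, 2 MPA+E against 2 placebo libraries) within each class for the 8 members whose effect in the progenitor-like class differed from the mean of the others; filled points are past adjusted p 0.05, and Slc16a3 was too low to be tested in 2 classes. Pgk1 and Pkm are filled above 0 and Ldhb below 0 in the progenitor-like class, and no other class has a filled point. The progenitor-like class held different cells in the 2 groups, as the shares of 20.1% against 55.05% and 57.3% in an unnamed cluster show.

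Other genes of the same pathways were taken from lists that hold no member. Of 22 tested genes linked to hypoxia-inducible factors, 8 were higher and 5 lower in tumors than in hyperplasia (limma-voom, median 0.13), where 15.4% and 13.9% of all genes were. Mif, a cytokine, read 78.4 and 102 CPM in the hyperplasias and 336 and 383 in the tumors (2.01 ± 0.20, adjusted p = 0.00419). Gys1, the glycogen synthase of muscle and fibroblasts, read 2.76 and 3.24 CPM against 8.58 and 11.1 (1.69 ± 0.22, adjusted p = 0.00703). Stc2, a secreted stanniocalcin, also rose, by 1.83 ± 0.26 (adjusted p = 0.00838). From normal gland to hyperplasia 5 were higher and 3 lower (7.7% and 6.29% of all genes). Epas1, which encodes the Hif2 alpha subunit, went from 15.1 and 16.4 CPM to 35.0 and 33.6 (1.09 ± 0.14, adjusted p = 0.0125). Pfkfb4 rose as well (1.19 ± 0.16, adjusted p = 0.0141) and Cited2, a brake on Hif1, fell (-0.83 ± 0.17, adjusted p = 0.0315). Under MPA+E 2 were higher and 0 lower (2.69% and 1.64% of all genes). Hif3a, a splice-rich relative of Hif1a, read 0.259 and 0.0971 CPM with placebo and 1.33 and 1.37 with MPA+E (2.94 ± 0.42, edgeR adjusted p = 0.0306). Plod2, a collagen lysyl hydroxylase, read 94.0 and 126 CPM against 267 and 239 (1.20 ± 0.20, adjusted p = 0.0446).

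Of 16 genes of pyruvate entry and the citrate cycle, 1 rose (Mpc1) and 1 fell (Pdhb) in tumors, where 15.4% and 13.9% of all genes did. The log2 difference was above 0 for 14 of the 16, with a median of 0.30 (-0.01 over all genes tested). Mpc1, a subunit of the mitochondrial pyruvate carrier, read 66.5 and 76.5 CPM in the hyperplasias and 104 and 116 in the tumors (0.63 ± 0.17, limma-voom adjusted p = 0.0388). Pdhb, of the pyruvate dehydrogenase complex, read 54.9 and 49.2 against 30.8 and 33.4 (-0.69 ± 0.14, adjusted p = 0.0181). None of the 16 was called in hyperplasia, with 9 at an unadjusted p under 0.05 (35.0% of all genes), or under MPA+E, with 0 (18.5%). Of 7 genes of the pentose phosphate pathway, Pgls rose in tumors (67.7 and 90.4 CPM to 134 and 155, 0.89 ± 0.20, adjusted p = 0.0233). Summed over the 7 genes the level was 466 and 475 CPM in puberty and adult, 251 and 325 in the hyperplasias and 366 and 428 in the tumors. In hyperplasia Pgls and Taldo1 were lower than in normal gland (-1.03 ± 0.19, adjusted p = 0.0285, and -0.87 ± 0.22, adjusted p = 0.0472), where 6.29% of all genes were lower. None was called under MPA+E, with 2 at an unadjusted p under 0.05 (18.5% of all genes). Of 11 listed isozymes and gene copies 4 were tested. Eno1b, a near-identical copy of Eno1 whose reads cannot be told apart from those of Eno1 with certainty, was higher in tumors at a low level, with 0.496 and 0.497 CPM in the hyperplasias against 1.35 and 3.33 (2.05 ± 0.56, adjusted p = 0.0379). No isozyme was called in the other 2 comparisons, with 1 at an unadjusted p under 0.05 in hyperplasia and 0 under MPA+E.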

How the data were processed

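Mammary stromal cells were profiled with the 10x Chromium 3′ assay. The authors deposited 1 filtered matrix of UMI counts per library, made with Cell Ranger 6.1.2 on mm10 per the submitters' processing notes, and these counts were not normalized. The annotation release is not given in the sources used here.

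Barcodes were kept as fibroblasts with 500 to 7500 genes, at most 10% mitochondrial UMIs, at least 50 UMIs of Dcn, Lum and Col1a2 per 10000, and no UMI of Epcam, Pecam1, Rgs5, Sox10, Ptprc or Myog. Doublets were kept in the main analysis, and the highest Scrublet scores (0.8% per 1000 barcodes) were removed as an alternative, since the automatic threshold marked only 727 barcodes. UMIs were summed per library over fibroblasts. Tumor, hyperplasia and normal libraries were fitted together with limma-voom (limma 3.58.1), and MPA+E with edgeR quasi-likelihood (edgeR 4.0.16, R 4.3.3), both with TMM scaling, filterByExpr and Benjamini-Hochberg adjustment over all genes tested (threshold 0.05). DESeq2 1.42.0 was an alternative. Fold changes are log2 with their SE. Other than for the difference between classes, p-values measure the spread between libraries of a group. Each library was made from a pool of 2 females (hormone) or from 1 mouse (hyperplasia and tumor). In the tumor and hyperplasia fits over all fibroblasts, that spread included the difference between puberty and adult, taken as 1 group. Tumor fits within classes used only the hyperplasia and tumor libraries. For the difference between classes, the library term took out the level of each library, and classes of 1 library counted as separate observations. Its p-values thus measure the spread of classes within libraries. Cells of each experiment were integrated with Seurat 5.3.0 on 1000 features without the members (30 dimensions, resolution 0.3), and classes with at least 50 cells in each library compared were tested on their summed counts (resolution 0.6 as an added alternative). Fits were tested on simulated data.

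Same-numbered hyperplasia and tumor libraries came from the same mouse, and their deviations from the group means correlated at 0.0954 over 16001 genes. The mouse as a block was an alternative.

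The members and lists were chosen with earlier results of these data known. All 34 members are accounted for. Values per sample are given for members past the threshold in a comparison over all fibroblasts and for the 8 with the highest stage ratio, and further members named were chosen after their values were seen. Genes of other lists are named where they passed, at most 4 per list and comparison by adjusted p, and some of these are not reported here. Promoter windows came from RefSeq (GRCm38.p6). Scaling, filters, tests, gate limits, doublets and each library left out were varied.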

Additional observations from a re-analysis of the deposited data

Results flagged for a closer look

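The MPA+E effect in progenitor-like cells differed from the mean effect in the other 4 classes for 8 members by a test of the difference itself. It was an edgeR quasi-likelihood contrast with the library as a term, 2 libraries against 2, adjusted over 13897 genes. Classes of 1 library counted as separate observations, so its p-values measure the spread of classes within libraries. The difference on the log2 scale was 0.32 ± 0.07 for Aldoa (adjusted p = 0.0103) and 0.32 ± 0.08 for Pgk1 (adjusted p = 0.0158). It was 0.29 ± 0.09 for Pkm (adjusted p = 0.0493) and 0.24 ± 0.07 for P4ha1 (adjusted p = 0.0430). Negative differences were found for Ldhb (-0.84 ± 0.24, adjusted p = 0.0327), Slc16a1 (-0.51 ± 0.15, adjusted p = 0.0342), Slc16a3 (-1.83 ± 0.50, adjusted p = 0.0259) and Hif1a (-0.40 ± 0.09, adjusted p = 0.0107). In progenitor-like cells Hif1a read 140.4 and 155 CPM with placebo and 89.2 and 119 with MPA+E, and Slc16a1 read 77.4 and 102 against 41.4 and 75.9. Slc16a3 stood near 1 CPM (1.02 and 2.85 against 0.878 and 0.536) and was tested in only 2 of the other classes. The progenitor-like class held different cells in the groups. Of its cells, 20.1% and 20.1% with placebo and 57.3% and 55.05% with MPA+E lay in an unnamed cluster of the finer clustering, and its 8 markers summed to 13398 and 11636 CPM against 5698 and 6350. With classes taken from the finer clustering, added after the data were seen, 2 members differed, Ldhb (-1.15, adjusted p = 0.0334) and Slc16a3 (-2.57, adjusted p = 0.0456). With 1 library left out the count fell from 8 to 4 (without MPA+E 1), 2 (without MPA+E 2 or placebo 1) and 1 (without placebo 2).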

How the results depend on the processing

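With all libraries, the 17 members called higher in tumors passed under each of the 10 alternatives (DESeq2, edgeR, RLE scaling, library totals, no low-count filter, stricter gates, doublets removed, milk and hemoglobin genes left out, replicate block), and 2 cell exclusions added after the data were seen left 13 and 12. The number lower was 0 with no filter and with cluster 4, or cluster 4 and cycling cells, left out. DESeq2 called 4 higher and 5 lower in hyperplasia, and 1 higher under MPA+E. Placebo and MPA+E libraries share only a number. Their same-numbered deviations correlated at 0.396 over 15642 genes. With a replicate block there were 2 higher and 4 lower (Adm, Hif1a, Hk2, Pgk1, Pkm, Slc16a1) over all fibroblasts. There were 2, 4, 5 and 7 calls in the ECM remodeling-like, adipogenesis-regulatory-like, preadipocyte-like and progenitor-like classes. The shares of all genes called for MPA+E under this block are not given, so these counts do not set the members apart from other genes. Under the mouse block the tumor calls in the same 4 classes were 8, 10, 17 and 12, and the share of all genes is not given. Without the filter, MPA+E calls were 1 in the ECM remodeling-like, 1 in the lobular-like and 3 in the preadipocyte-like class, and tumor calls were 0 in the ECM remodeling-like and 11 in the progenitor-like class. With classes at resolution 0.6, added after the data were seen, MPA+E calls were 0 in the progenitor-like class and 2 for the difference between classes, and tumor calls were 0 in the ECM remodeling-like, 1 in the adipogenesis-regulatory-like, 5 in the myofibroblastic-like and 1 in the progenitor-like class. Pentose phosphate calls with library totals were 1 for MPA+E and 1 for hyperplasia. The cause was not tested for any of these, other than that the finer clustering leaves an unnamed cluster out of the progenitor-like class.

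With 1 library left out, a lone sample being assumed to vary like the other groups, counts of members ranged for tumors from 0 to 23 higher and 0 to 3 lower, for hyperplasia from 0 to 5 and 0 to 7, and for MPA+E from 0 to 0 and 0 to 1. Tumor calls within classes ranged from 0 to 10 (ECM remodeling-like), 1 to 11 (adipogenesis-regulatory-like), 1 to 17 (lobular-like), 9 to 20 (myofibroblastic-like), 0 to 14 (preadipocyte-like) and 0 to 19 (progenitor-like). MPA+E calls ranged from 0 to 5, 0 to 1, 0 to 2, 0 to 0 and 0 to 7 in the ECM remodeling-like, adipogenesis-regulatory-like, lobular-like, preadipocyte-like and progenitor-like classes, and from 1 to 4 for the difference between classes. For the other lists (MPA+E, tumor, hyperplasia) they ranged from 0 to 2, 1 to 12 and 0 to 13 for hypoxia, 0 to 0, 0 to 8 and 0 to 5 for the citrate cycle, 0 to 1, 0 to 2 and 0 to 5 for the pentose phosphate pathway, and 0 to 0, 0 to 3 and 0 to 1 for isozymes. Shares of all genes called are not given for these ranges. No direction of a called value was reversed. Of the alternative values that answer a comparison, 144 stayed within 1.5 times or the replicate spread and 116 moved past it. Of the values of single members, 1748 kept their call, 184 lost it, 42 gained one and 5 moved. Depth limits Egln3 and Aldoc, at 4 to 8 and 0 UMIs in the hyperplasias.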
